A study of Mus musculus with 2 samples.

Results

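A set of 10 genes that mark the integrated stress response, the ATF4-CHOP arm of the cell's answer to stress, was followed in cultures of NE4C. The genes were chosen by name (Atf4, Ddit3, Atf3, Atf5, Trib3, Chac1, Ppp1r15a, Cebpb, Cebpg and Nupr1), and the rows of the deposited table with these symbols were taken. All 10 were found among 16803 genes. NE4C is an established mouse neural stem cell line, a clone from the brain vesicles of p53-deficient embryos, so both cultures share that genotype. RNA came from 1 normal culture (control) and 1 culture treated with HTL, homocysteine thiolactone, the cyclic thioester of homocysteine, which reacts with lysines of proteins. The labels give no dose and no duration for the RNA samples. Each condition had 1 library, so no difference has a replicate check. Intervals and tests cover counting error only, and they compare these libraries, not the conditions. PCR copies of a molecule cannot be recognised, so even the counting error may be understated.

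In the integrated stress response, kinases that sense misfolded protein, lack of amino acids, lack of haem or double-stranded RNA phosphorylate the translation factor eIF2. Most translation then slows, while certain messages with short open reading frames in their 5′ leader, such as that of Atf4, are translated more. ATF4 and the factors it induces, CHOP among them, switch on genes for amino acid supply, for redox balance and for feedback on the response itself.

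The libraries held 10350665 control reads and 9102076 HTL treatment reads. Of the 10 neural stem cell markers examined, Nes had 1617 and 1365 reads and Msi1 had 617 and 555 reads (control first, here and throughout). Of the 9 tested, Sox1, Sox2 and Vim were called lower and Notch1 higher, where 7.98% and 2.81% of all genes tested were. Vim lost its call under other scalings, and Sox1 and Notch1 lost theirs with FPKM + 1 (log2 of -0.70 and 0.70). When cultures were assumed to vary, Sox1 lost its call from a coefficient of 0.1 and Sox2 and Notch1 from 0.2. Pax6 had 69 and 66 reads, and Fabp7 had 2 reads in each library. Most markers of other cell types were low. Summed per list, they ran from 2.13 to 43.8 CPM (reads scaled to the library total) in the control culture and from 2.42 to 57.2 CPM after HTL. The highest was the neuron marker Stmn2, with 309 and 403 reads (29.9 and 44.3 CPM). Its log2 ratio was 0.57 (0.35 to 0.79), and it was not called. Of the 3 astrocyte and oligodendrocyte markers tested, 1 was called higher: Aldh1l1, a folate enzyme of astrocytes, had 21 and 56 reads and stood at 1.58 (0.85 to 2.40) on the log2 scale, a call lost with FPKM + 1 (0.85) and with an assumed coefficient of 0.1. The astrocyte gene Gfap had 2 and 0 reads. Nes, Msi1, Vim, Pax6, Fabp7, Stmn2 and Gfap were chosen for mention after their values were seen. The part of these shifts in the results below was not tested.

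The promoters are shown first, because genes that share a motif differed in their response. ATF4 binds DNA with C/EBP partners at a composite element, searched here as TGATGNAA on both strands and abbreviated CARE. The windows ran from 250 bases before to 50 after each RefSeq start (GRCm38.p6). All 10 genes had a window, and Atf5 had 2. A CARE was found for Atf3, Chac1, Trib3 and Nupr1, against 3.97% of all 32851 windows and 2.64% of the genes tested that had a window. The 250 bases before the start of the first, second and last of these are given 5′ to 3′ on the gene's strand, with the CARE in capitals. For Atf3 (chr1:191183334-191183583, minus strand) and Nupr1 (chr7:126625471-126625720, minus strand) it began 110 bases before the start, and for Chac1 (chr2:119350992-119351241, plus strand) 193 bases before it.

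Atf3: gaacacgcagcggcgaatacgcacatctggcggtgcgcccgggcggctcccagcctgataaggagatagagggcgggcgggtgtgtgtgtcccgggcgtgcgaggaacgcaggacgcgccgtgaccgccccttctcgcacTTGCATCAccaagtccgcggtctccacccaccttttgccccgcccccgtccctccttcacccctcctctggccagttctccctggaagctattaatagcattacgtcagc
Nupr1: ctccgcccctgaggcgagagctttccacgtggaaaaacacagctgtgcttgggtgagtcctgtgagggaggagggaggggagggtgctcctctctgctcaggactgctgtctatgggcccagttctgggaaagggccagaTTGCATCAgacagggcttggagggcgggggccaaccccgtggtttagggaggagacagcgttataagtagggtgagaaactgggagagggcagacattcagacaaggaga
Chac1: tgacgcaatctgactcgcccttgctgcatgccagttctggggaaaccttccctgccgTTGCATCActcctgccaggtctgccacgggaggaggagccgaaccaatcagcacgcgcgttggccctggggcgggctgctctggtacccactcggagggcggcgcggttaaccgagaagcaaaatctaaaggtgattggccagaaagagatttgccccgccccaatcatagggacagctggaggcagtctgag

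The same 8 letters, TTGCATCA, stood in all 3 windows, yet Atf3 and Nupr1 were among the most raised genes and Chac1 was level, as described below. For Trib3 the match lay 14 to 21 bases after the annotated start, and 30 bases around it are given (chr2:152344028-152344057, minus strand).

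Trib3: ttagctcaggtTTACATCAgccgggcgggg

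Other motifs marked 2 more of the genes. The cyclic AMP response element TGACGTCA, bound by ATF and CREB factors, lay 12 bases before the start of Ppp1r15a (chr7:45526269-45526518, minus strand) and was in 1.79% of all windows, or 3.57% of genes tested. The AP-1 motif TGANTCA lay 242 bases before the start of Ddit3 (chr10:127290543-127290792, plus strand) and was in 7.81%, or 5.71% of genes tested. Both windows are given with these letters in capitals.

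Ppp1r15a: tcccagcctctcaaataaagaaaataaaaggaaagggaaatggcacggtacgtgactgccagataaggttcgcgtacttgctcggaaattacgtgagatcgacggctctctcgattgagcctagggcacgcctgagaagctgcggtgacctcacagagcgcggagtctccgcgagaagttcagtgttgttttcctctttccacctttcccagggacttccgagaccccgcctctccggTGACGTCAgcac
Ddit3: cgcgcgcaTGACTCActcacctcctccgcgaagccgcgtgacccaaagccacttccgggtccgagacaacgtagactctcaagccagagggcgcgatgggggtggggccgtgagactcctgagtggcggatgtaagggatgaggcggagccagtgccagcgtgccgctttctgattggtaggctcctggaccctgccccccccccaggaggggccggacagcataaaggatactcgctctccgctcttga

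The motif TGACGTGG, bound by XBP1 and ATF6, and the endoplasmic reticulum stress element (ERSE) were in no window of the 10 genes. They were in 0.676% and 0.119% of all windows, or 1.05% and 0.17% of genes tested. None of the motifs overlapped another. A match is a run of letters, not a shown binding site. Among all 10615 genes tested that had a window, the 280 with a CARE had a median log2 ratio of -0.07 and 6.07% of them were called higher. Without a CARE the median was -0.14 and 2.68% were called higher. The 4 genes above are among the 280, and 3 of them are among the 17 called.

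The main comparison asked whether the 10 genes differed after HTL. In the HTL treatment library 9 of the 10 were higher and none was lower, and Chac1 was level. A gene was called where its log2 ratio of CPM was at least 1 in size and its adjusted p at most 0.001 in the two-sided exact binomial test, with Benjamini-Hochberg adjustment over all 13442 genes with at least 10 reads. By this rule 9 of the 10 genes were called higher, where 2.81% of all genes tested were, and 0 were called lower, where 7.98% were. All 10 passed the filter on reads. The interval of the log2 ratio lay above 0 for 9 of the 10 and for 23.2% of all genes tested, and the ratio itself was above 0 for all 10 and for 41.3%. Their median log2 ratio was 2.28, beside -0.14 over all genes tested. In one culture of each kind, more RNA per cell and more cells that hold it cannot be told apart.

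**Figure D1:**
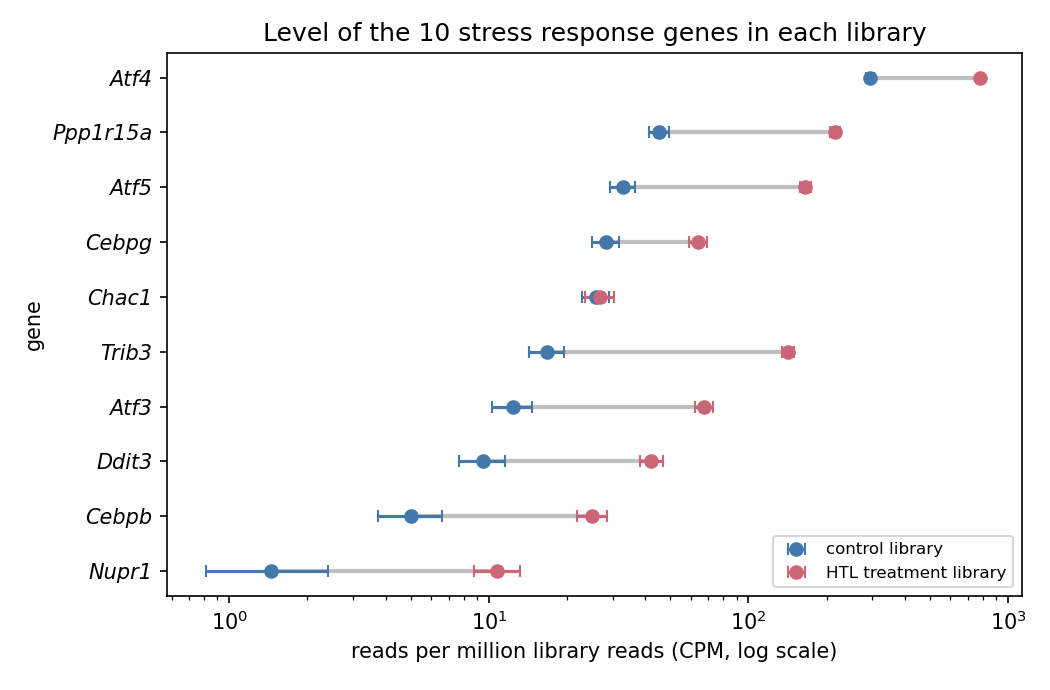
Level of each gene in the control library (blue) and the HTL treatment library (red), in CPM on a log axis, with bars for the 95% exact Clopper-Pearson interval of the count. The points are apart for 9 genes, and those of Chac1 (25.8 and 26.7 CPM) lie on each other.

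Atf4, the central transcription factor of the response, was by far the most abundant. It had 3047 and 7124 reads, or 294 and 783 CPM. Its FPKM values (fragments per kilobase of transcript, scaled to library size) were 192 and 509. Its log2 ratio was 1.41 (95% interval 1.35 to 1.47), a 2.66-fold difference. That ratio lay at percentile 97.9 of all genes tested. Its rise was smaller than that of 7 other members, although it took 62.4% of the control reads of the 10 genes and 50.7% of those after HTL.

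Ddit3, which encodes CHOP, a factor that pairs with C/EBP proteins and can favour cell death, had 98 and 385 reads, or FPKM of 11.3 and 50.6. The log2 ratio was 2.15 (1.84 to 2.49), a 4.47-fold difference. Atf3, an early stress factor and partner of AP-1 proteins, had 128 and 612 reads and FPKM of 6.25 and 33.9. Its log2 ratio of 2.44 (2.17 to 2.73) was below those of Trib3 and Nupr1 only. Atf5, the nearest relative of Atf4, had 339 and 1509 reads and FPKM of 18.4 and 92.0, with a log2 ratio of 2.34 (2.17 to 2.51). These factors thus differed by more than Atf4 did, and their intervals did not reach that of Atf4.

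The C/EBP factors pair with ATF4 and CHOP on DNA. Cebpb had 52 and 228 reads and FPKM of 3.33 and 16.6, a log2 ratio of 2.31 (1.88 to 2.78). Cebpg, the short C/EBP that is a frequent partner of ATF4, had 292 and 583 reads and FPKM of 5.93 and 13.4. Its log2 ratio of 1.18 (0.98 to 1.39) was the lowest of the called genes, and its interval reached below the cutoff of 1. It was the 1 gene of the 10 with fractional read estimates (292.45 and 582.79), which the software gives when reads could come from more than 1 gene.

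The genes of feedback on the response were called higher as well. Ppp1r15a, or GADD34, brings a phosphatase to eIF2 and so ends the block of translation. It had 469 and 1962 reads and FPKM of 19.3 and 91.6, a log2 ratio of 2.25 (2.10 to 2.40). Trib3, a pseudokinase that binds and restrains ATF4, had 173 and 1297 reads and FPKM of 8.15 and 69.4. With a log2 ratio of 3.09 (2.86 to 3.33), or 8.53-fold, it was the most raised of the 10, at percentile 99.8 of all genes tested. Nupr1, a small stress-induced chromatin protein, had 15 and 98 reads and FPKM of 2.36 and 17.5. Its log2 ratio was 2.85 (2.10 to 3.78), and its interval, the widest of the 10, comes from the 15 control reads.

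Chac1, an enzyme that breaks down glutathione and a known target of ATF4 and CHOP, was the 1 gene not called. It had 267 and 243 reads, or 25.8 and 26.7 CPM, and FPKM of 16.4 and 16.9. The log2 ratio was 0.05 (-0.21 to 0.31), a fold of 1.03 (0.87 to 1.24), with an adjusted p of 0.793 in the exact binomial test. The upper end of the counting interval was thus a 1.24-fold rise between these libraries. Its control level was within the range of the other 9 genes. The scaling did not turn the direction: under each alternative run the log2 ratio of Chac1 lay between 0.04 and 0.19.

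**Figure D2:**
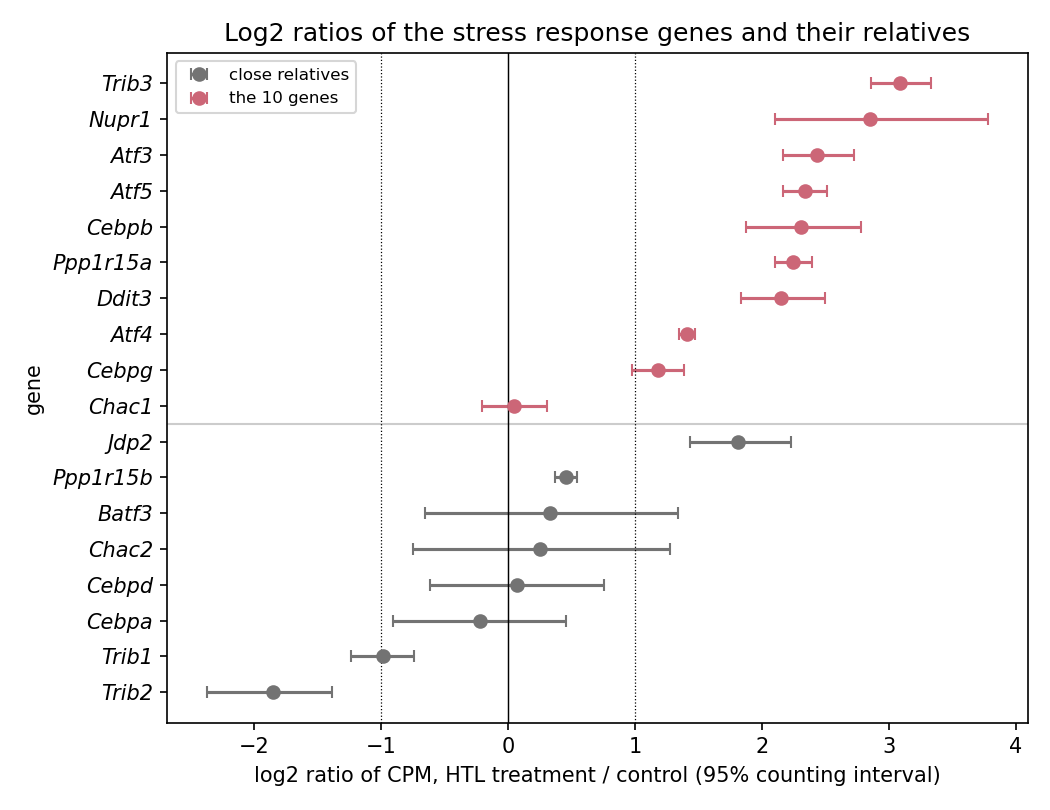
Log2 ratio of CPM (HTL treatment over control) of the 10 genes (red) and of 8 close relatives with enough reads to test (grey), with the 95% counting interval and dotted lines at the cutoffs. Trib3 is at 3.09 while Trib2 is at -1.85, and Chac1 (0.05) is the only one of the 10 genes below 1.

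Ordered by log2 ratio, the genes were Trib3, Nupr1, Atf3, Atf5, Cebpb, Ppp1r15a, Ddit3, Atf4, Cebpg and Chac1. Of the 9 pairs of neighbours in this order, 7 had overlapping intervals. The steps without overlap were from Ddit3 to Atf4 (0.74 on the log2 scale) and from Cebpg to Chac1 (1.13). The genes thus fell into 7 with a log2 ratio of at least 2, Atf4 and Cebpg between 1 and 2, and Chac1 near 0. Without Atf4, the other 9 genes summed to 177 CPM under control conditions and 760 CPM after HTL.

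Levels between genes were compared per length, as FPKM with the counting interval of the reads. In the control library the order was Atf4 (192), Ppp1r15a (19.3), Atf5 (18.4), Chac1 (16.4), Ddit3 (11.3), Trib3 (8.15), Atf3 (6.25), Cebpg (5.93), Cebpb (3.33) and Nupr1 (2.36). Intervals of neighbours overlapped except between Atf4 and Ppp1r15a, Chac1 and Ddit3, and Cebpg and Cebpb. In the HTL treatment library Atf4 was followed by Atf5, Ppp1r15a, Trib3, Ddit3 and Atf3, and then by Nupr1, Chac1, Cebpb and Cebpg. The neighbours Atf5 and Ppp1r15a overlapped there, as did each neighbouring pair from Nupr1 down. Chac1 thus stood at rank 4 of the 10 in the control library and at rank 8 after HTL, at almost the same FPKM. The lead of Atf4 over the next gene shrank from 9.98-fold to 5.53-fold in FPKM.

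**Figure D3:**
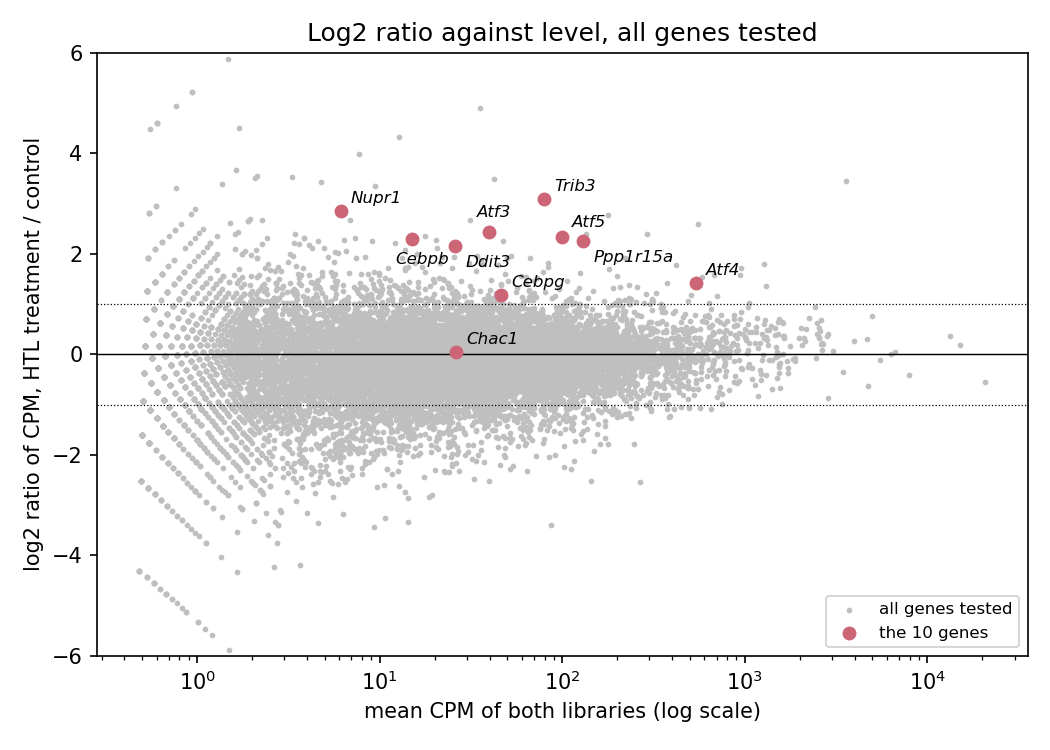
Log2 ratio of CPM (HTL treatment over control) against the mean CPM of both libraries (log axis) for all 13442 genes tested (grey), with the 10 genes in red and dotted lines at the cutoffs. Of the 10, 9 lie above the upper dotted line and Chac1 lies near 0. A further 16 genes fall outside the axis.

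The error between cultures, which 1 library per condition cannot give, was the assumption that moved these calls most. Where cultures were assumed to vary by a coefficient of 0.1 (exact test of edgeR), 9 of the 10 genes were called higher (2.2% of all genes tested). With 0.2, 7 were (0.283% of all), and Atf4 (adjusted p = 0.0225) and Cebpg (0.089) were not. With 0.4, 0 were called (0.00744% of all), and the lowest adjusted p among the 10 was that of Trib3, 0.266. With a log2 cutoff of 2 in the exact binomial test 7 of the 10 were called (0.551% of all). In the remaining alternatives 9 of the 10 were called higher. The background was then 4.11% with TMM, 4.16% with the median of ratios and 3.7% with upper quartile scaling. It was 2.21% with a minimum of 1 read, 2.93% with a mean of at least 50 reads, 2.68% with 5 reads added, 1.79% with FPKM + 1 and 3.8% with an adjusted p cutoff of 0.05.

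Transcripts of the 10 genes were short, with a median of 1693 bases beside 2888 bases over all genes tested. Short genes had higher ratios in these libraries: in the shortest of 10 equal bins of length the median log2 ratio was 0.14 and in the longest -0.38. Ddit3 and Nupr1 lie in the shortest bin. Relative to the median of its own bin, the log2 ratio was 2.02 for Ddit3 and 2.71 for Nupr1. It was 3.20 for Trib3, 1.43 for Atf4, 1.38 for Cebpg and 0.07 for Chac1. On this scale too 9 of the 10 were called higher, where 4.14% of all genes tested were.

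The positions of the genes were taken from the GENCODE M1 annotation of NCBIM37 (mm9), the build named in the submitters' processing notes. Atf4 lies on chromosome 15 (80085614 to 80087970, plus strand), Ddit3 on chromosome 10 (126727830 to 126733344, plus strand) and Atf3 on chromosome 1 (192994175 to 193007219, minus strand). Trib3 (152163158 to 152169768, minus strand), Chac1 (119176965 to 119180117, plus strand) and Cebpb (167514415 to 167515918, plus strand) lie on chromosome 2. Atf5 (52067627 to 52072028), Ppp1r15a (52778286 to 52781638), Cebpg (35831441 to 35841522) and Nupr1 (133766763 to 133770524) lie on the minus strand of chromosome 7. No other row of the table had the same best protein match as one of the 10 genes.

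Exons of 4 of the genes overlap a gene on the opposite strand, and whether reads were counted by strand is not given in the sources used here, so their reads are less certain. Ddit3 overlaps Mars, the methionyl-tRNA synthetase gene, whose log2 ratio was 0.48 (0.36 to 0.59) on 1137 and 1393 reads. Atf5 overlaps Nup62, a nuclear pore gene at 0.95 (0.84 to 1.05) on 1260 and 2134 reads, and Il4i1 with 7 and 1 reads. Cebpb overlaps Tmem189 at 0.75 (0.61 to 0.90) on 644 and 953 reads. Ppp1r15a overlaps Tulp2, which had 5 and 8 reads. The log2 ratio of each of the 4 genes was above that of the overlapping genes named. The part of the overlaps in the results was not tested.

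In the 5′ leaders of the annotated protein-coding transcripts, at least 1 ATG before the coding sequence was present in every transcript of Atf4, Ddit3, Atf3, Atf5, Ppp1r15a, Cebpg and Nupr1. Among all genes tested with an annotated leader (11595), 37.0% had one in every transcript. The largest numbers were 7 in a transcript of Ppp1r15a and 6 in a transcript of Atf5. The leaders of Trib3, Chac1 and Cebpb held none. These libraries measure RNA and not translation, and genes with and without an upstream ATG were among the most raised. Over the genes tested with an annotated leader, the median log2 ratio was -0.18 with an upstream ATG in every transcript and -0.06 with none in any. Genes with one in only some transcripts are in neither group.

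Relatives by sequence were compared with the 10 genes. Jdp2, the closest relative of Atf3, had 71 and 221 reads and was called higher, with a log2 ratio of 1.82 (1.43 to 2.23). The other pseudokinases of the Trib family were below 0. Trib2 had 182 and 44 reads and was called lower at -1.85 (-2.37 to -1.38), and Trib1 had 438 and 195 reads at -0.98 (-1.23 to -0.74), short of the cutoff. Ppp1r15b, the constitutive counterpart of Ppp1r15a, stood at 0.46 (0.37 to 0.55) on 1888 and 2281 reads. By FPKM it exceeded Ppp1r15a in the control library (32.3 and 19.3) and lay under it in the HTL treatment library (44.3 and 91.6). Cebpa (45 and 34 reads, log2 ratio -0.22), Cebpd (40 and 37, 0.07), Chac2 (18 and 19, 0.26) and Batf3 (18 and 20, 0.33) had intervals that crossed 0, and the log2 ratio of Cebpa stayed below 0 under the other scalings. Nupr1l had 1 read in each library. Of these 8 relatives tested, 1 was called higher and 1 lower, where 2.81% and 7.98% of all genes tested were, and with an assumed coefficient of variation of 0.2 neither was called.

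None of the 4 eIF2 kinases upstream of ATF4 was called. The shares of all genes tested, 2.81% higher and 7.98% lower, apply to them and to the list of 11 genes that holds them. They are sensors that are activated mainly as proteins. Eif2ak3, or PERK, the sensor of the endoplasmic reticulum, stood at a log2 ratio of -0.21 (-0.46 to 0.04) on 306 and 233 reads. Eif2ak4, or GCN2, the sensor of uncharged tRNA, had 277 and 237 reads and one of -0.04 (-0.30 to 0.22), which lay above 0 under the other scalings. Eif2ak1, the haem-regulated kinase, had 836 and 572 reads and one of -0.36 (-0.52 to -0.21). Eif2ak2, or PKR, had 247 and 125 reads and one of -0.79 (-1.12 to -0.48). In the list of 11 kinase and phosphatase genes that holds them, Dnajc3, an inhibitor of PERK, rose by 1.48 (221 and 544 reads) and Impact, an inhibitor of GCN2, fell by 1.22 on the log2 scale (718 and 271 reads). Both calls were lost with an assumed coefficient of variation of 0.2. The list's median was -0.04, or between 0.05 and 0.10 under the other scalings. Of the 11 genes for eIF2, its exchange factor eIF2B and related initiation factors, 0 were called in the exact binomial test in either direction. Of all genes tested, 2.81% were called higher and 7.98% lower. Their log2 ratios ran from -0.68 to 0.35 with a median of -0.17.

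A list of other known ATF4 targets held genes chiefly for amino acid synthesis, transport and tRNA charging. Of its 36 genes, 35 were tested, 13 were called higher and 0 lower in the exact binomial test, against the background of 2.81% and 7.98%. Their median was 0.94, and 32 lay above 0. Sesn2, a brake on growth signalling, had a log2 ratio of 2.39 (2.24 to 2.54) on 447 and 2063 reads, and Nfil3, a transcription factor, had 140 and 436 reads and one of 1.82 (1.55 to 2.11). Asns, the asparagine synthetase gene often used to follow ATF4, had 2416 and 4235 reads and stood just short of the cutoff at 0.995 (0.92 to 1.07). Asns was chosen for mention after its values were seen. The same holds for Slc7a11, the cystine carrier, which stood at -0.37 (-0.40 to -0.34) on 17870 and 12153 reads. With Slc38a2 and Stbd1, also named after their values were seen, it made up the 3 tested genes of the list below 0. Relative to the median of its length bin Slc7a11 stood at 0.0068, and 33 of the 35 were then above 0. Under other scalings 16 or 17 of the 35 were called higher, and with an assumed coefficient of variation of 0.2 only 1 was.

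Of 8 genes tested that are described as CHOP targets, 1 was called higher and 0 lower, beside 2.81% and 7.98% of all genes tested. The 1 was Txnip, a thioredoxin-binding protein at a log2 ratio of 4.91 (4.34 to 5.61) on 23 and 621 reads, which is also regulated by glucose sensing. The other 7 had log2 ratios from -0.93 to 0.77, and the median of the 8 was 0.11. The lowest was Bcl2 at -0.93 (-1.29 to -0.58), named after its values were seen. The list did not separate genes that CHOP raises from genes that it lowers, so the count and the median mix both.

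The neighbouring arms of the unfolded protein response are run by ATF6 and XBP1. Of 27 genes of these arms, 19 were called higher and 0 lower, with a median of 1.37. The shares of all genes tested, 2.81% and 7.98%, apply to this list and to the factors and heat shock genes that follow. With an assumed coefficient of variation of 0.2 the 19 became 4, where 0.283% of all genes tested were called higher. Hspa5, the main chaperone of the endoplasmic reticulum, stood at a log2 ratio of 3.45 on 6184 and 59487 reads, and Herpud1, a gene of protein degradation at that membrane, had 471 and 2839 reads and one of 2.78. Among 16 other ATF, CREB and NFE2L factors tested, Atf6 (1.75), which is also in the list of the arms, and Creb3l2 (1.09) were called higher and 0 were called lower. Creb3l2 was not called with FPKM + 1 (0.76) or with an assumed coefficient of 0.1, neither was called with 0.2, and 1 factor was called lower with an adjusted p cutoff of 0.05. The median of the 16 was -0.05, above 0 under the other scalings. Of 8 heat shock response genes tested, 0 were called in either direction and the median was 0.16, though 1 was called higher under each other scaling. The 8 include the mitochondrial chaperonin genes Hspd1 (-0.83) and Hspe1 (-0.33). Hspa1a and Hspa1b had too few reads to test. The genes of this list were named after their values were seen.

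**Figure D4:**
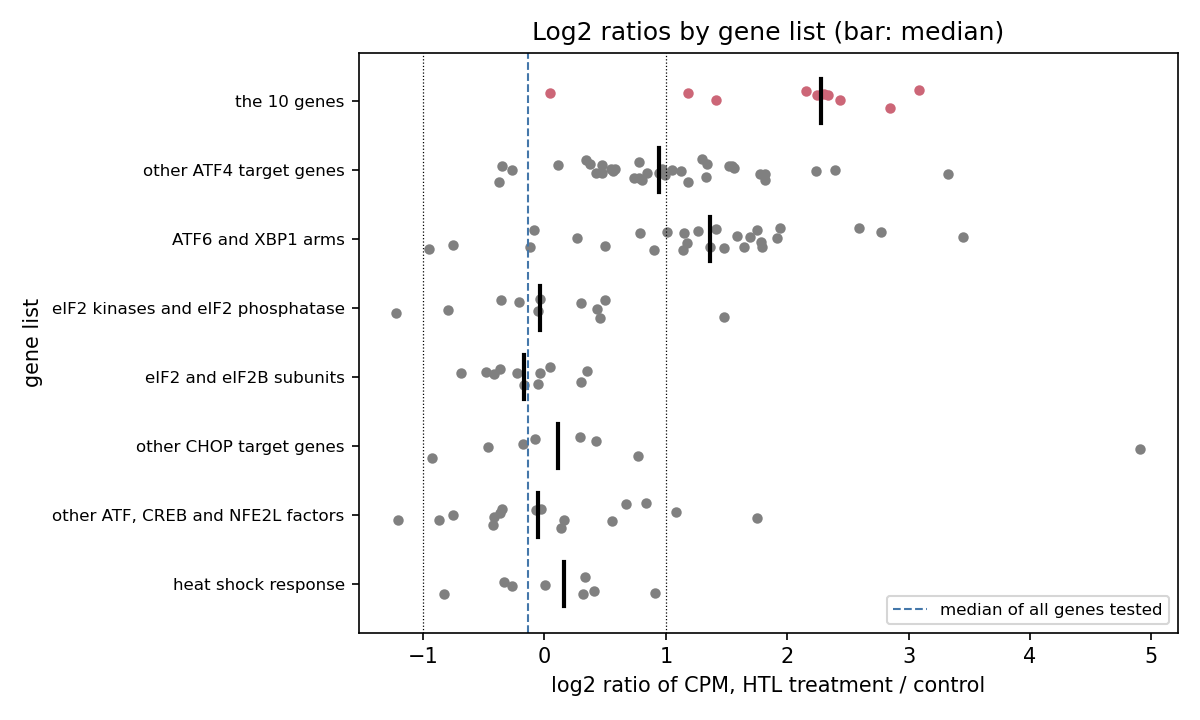
Log2 ratio of CPM (HTL treatment over control) of each gene tested, by gene list (points; vertical scatter within a list has no meaning), with the list's median as a black bar, the median of all genes tested as a dashed line and the cutoffs as dotted lines. Of the lists drawn, the 10 genes have the highest median (2.28), followed by the ATF6 and XBP1 arms (1.37) and the other ATF4 targets (0.94). The remaining lists have medians from -0.17 to 0.16. Some lists share genes, Dnajc3 and Atf6 among them.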

How the data were processed

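NE4C RNA gave 1 control and 1 HTL treatment library, grouped by the sample titles. As the methods state, the authors aligned filtered reads to mouse reference sequence and used RSEM to estimate the reads of each gene. The aligner, versions, annotation and strand setting are not given in the sources used here. The notes of the submitters name mm9. The deposited table holds expected counts from RSEM without normalization, FPKM made by the authors with a lowest value of 0.01, and transcript length. Deposited columns of the authors' own comparison (log2 ratio, p-value, FDR) were not used.

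Expected counts were rounded to whole numbers. A total of 13442 genes with at least 10 reads over both libraries were tested with the two-sided exact binomial test (scipy 1.17.1), which sets a gene's reads against the library totals, with Benjamini-Hochberg adjustment. The other 3361 were left out. The cutoffs (adjusted p of 0.001, log2 ratio of 1) are those of the methods of the study. For log2 ratios 0.5 read, scaled to the totals, was added. Intervals are 95% exact Clopper-Pearson. Quasi-likelihood fits of edgeR and DESeq2 need replicates and could not be fitted. Alternatives used edgeR 4.0.16 and DESeq2 1.42.0 for scaling, and the exact test of edgeR with an assumed coefficient of variation. The binomial test and intervals were run on simulated counts that held counting error only, so that run cannot speak to variation between cultures.

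The 10 genes, the other 8 lists and the 5 marker lists, the motifs and the tests were chosen with earlier results of these data known, so no list is independent support. Some lists share genes. Dnajc3 is in the kinase list and the ATF6 and XBP1 arms, and Atf6 in those arms and the factor list. Jdp2 is among the relatives and the ATF4 targets, and Ppp1r15b among the relatives and the kinase list. Named were the 10 genes, their relatives, the eIF2 kinases and, from each other list, up to 2 called rises and 2 called falls with the largest ratios and a mean of at least 20 reads. Other genes are named for an exon overlap with one of the 10 or, where stated, after their values were seen. The promoter windows are from RefSeq (GRCm38.p6).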

Additional observations from a re-analysis of the deposited data

How the results depend on the processing

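No paired analysis was possible because there was just 1 control and 1 HTL treatment library, nor could either be left out. Summing a gene with rows that share its best protein match could not be run, since no such row was found. The 9 genes called higher, of 10, became 0 with an assumed coefficient of variation of 0.4, under which 6 of all genes tested were called, and 7 with 0.2 or with a log2 cutoff of 2. In each other alternative run they were 9. Their median log2 ratio, 2.28, ran from 2.13 (FPKM + 1) to 2.41 (median of ratios), and each of the 10 log2 ratios stayed above 0 in each alternative run. The count over all genes, 1450 (378 higher, 1072 lower), was 816 with FPKM + 1, 120 with a coefficient of variation of 0.2 and 287 with a log2 cutoff of 2. TMM, the median of ratios and the upper quartile raised log2 ratios by 0.13, 0.14 and 0.09. With TMM 552 genes were called higher and 800 lower, with the median of ratios 559 and 788, and with the upper quartile 498 and 860. Nupr1, with 15 control reads, is the gene of the 10 most limited by depth.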

Other observations

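The ERSE, a composite motif bound by ATF6 with NF-Y, was in no window of the 10 genes, but the 18 genes tested that had it within 250 bases before to 50 after their start had a median log2 ratio of 0.72. Of these 18, 8 (44.4%) were called higher, beside 2.70% of the genes tested without it. Genes with the cyclic AMP response element (379) had a median of -0.11 and 2.64% were called higher. These are descriptions of the 2 libraries, with no test.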
